A study of Mus musculus with 32 samples.

Results

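The genes described here are the enzymes of glycolysis and the pyruvate dehydrogenase kinase Pdk1, in blood progenitors of mice that differed in U2af1. The set was named by gene symbol: Pdk1, Hk2, Gpi1, Pfkl, Pfkp, Aldoa, Pgk1, Eno1, Pkm and Ldha. Of these 10 genes, 7 had a row among the 27728 genes of the count table, and Pgk1, Eno1 and Ldha were not analysed here. The set was selected on measured values of these libraries, the fetal deletion comparisons, in which Pdk1 was lower in both deletion genotypes. Those comparisons are therefore given as a description: no p-value is printed for them, and nothing is read from how many genes of the set or of the lists were past the limit for a call. All 7 genes passed the filter on low counts in every comparison.

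The study measured RNA in sorted blood progenitors (Lin- cKit+ Sca1-), and varied U2af1, which encodes a splicing factor that reads the 3′ splice site. All fetal cells came from liver at E14.5 and were untreated, and all adult cells came from bone marrow. The flox control was U2af1(flox/flox) without Cre (n = 3), the heterozygous deletion was Vav1-Cre/U2af1(wt/flox) (n = 3), and the homozygous deletion was Vav1-Cre/U2af1(flox/flox) (n = 3). These 9 libraries belonged to batch A of the labels. The S34F group was Vav1-Cre/U2af1(wt/S34F) (n = 4), all in batch B, and the Vav1-Cre group had 1 library in each batch. S34F, an amino acid change in U2AF1, recurs in blood cancers. Vav1-Cre acts throughout blood cells, so no cell type within the sort was targeted alone. All adult mice carried Mx1-Cre, rTA and the transgene tgU2AF1(WT). The 3 dose groups had the endogenous genotype U2af1(flox/S34F) and were given pIpC, an RNA mimic that turns on Mx1-Cre, so that the flox allele is deleted and S34F is the endogenous allele that is left. Their diet held doxycycline, which switches on the wild-type U2AF1 transgene, at doses of 1250 ppm (n = 4), 2500 ppm (n = 6) and 10000 ppm (n = 4). The adult control had the endogenous genotype U2af1(wt/wt) (n = 3) and was untreated. It differed from the dose groups in at least genotype, pIpC and doxycycline together. The presence of Y-linked reads also varied among the adult libraries, but not among the 14 with doxycycline. The labels do not say whether replicates were separate animals, so p-values measure the spread between these libraries, which may be technical.

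Glycolysis turns glucose into pyruvate. Hexokinase traps glucose as glucose 6-phosphate, phosphofructokinase makes the committing step, and pyruvate kinase forms pyruvate. Pyruvate is then reduced to lactate or enters mitochondria, where the pyruvate dehydrogenase complex turns it into acetyl-CoA. Pyruvate dehydrogenase kinases such as PDK1 phosphorylate that complex and switch it off. Blood stem and progenitor cells are known for strong glycolysis, and Pdk1 and most of the enzymes are textbook targets of the hypoxia-inducible factors.

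Library totals ran from 26.6 to 71.3 M counts, and no gene of the set had fewer than 2160 counts (Pdk1) in any library. Levels are CPM, that is, counts relative to the library total after its scaling by the trimmed mean of M values. Kit, which encodes the receptor used in the sort, ran from 239 to 324 CPM in the homozygous deletion and from 384 to 776 CPM in the libraries of every other group. Markers of hepatocytes, of which 9 of 12 had a row, summed to 84.2 to 607 CPM in the flox control, 37.3 to 105 CPM in the heterozygous deletion and 5.04 to 22.6 CPM in the homozygous deletion. In the adult groups they summed to at most 5.10 CPM, with Alb, Ttr, Fga, Fgb and Fgg at 0. Markers of mast cells and basophils (5 of 6 with a row) summed to 338 to 401 CPM in the flox control and 618 to 717 CPM in the homozygous deletion. U2af1 was not analysed here, and the genotypes rest on the labels. In bulk RNA, fewer cells of a type and less RNA per cell cannot be told apart.

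Promoters are shown for 4 of the genes that differed in how they moved with genotype: Pdk1, which was lower in the deletions, Hk2, which was higher in the homozygous deletion, and the pair Pfkl and Pfkp, whose products catalyse the same step. Each window runs from 250 bases before to 50 bases after the annotated start in RefSeq on GRCm38.p6, printed 5′ to 3′ on the strand of the gene. The windows are chr2:71872974-71873273 on the plus strand for Pdk1, chr6:82774405-82774704 on the minus strand for Hk2, chr10:78009758-78010057 on the minus strand for Pfkl and chr13:6648722-6649021 on the minus strand for Pfkp. Capitals mark ACGTG or its reverse complement CACGT, a form of the core that hypoxia-inducible factors bind. They also mark GGGCGG or its reverse complement CCGCCC, the GC box. The other form of the core, GCGTG, was not counted or marked.
Pdk1: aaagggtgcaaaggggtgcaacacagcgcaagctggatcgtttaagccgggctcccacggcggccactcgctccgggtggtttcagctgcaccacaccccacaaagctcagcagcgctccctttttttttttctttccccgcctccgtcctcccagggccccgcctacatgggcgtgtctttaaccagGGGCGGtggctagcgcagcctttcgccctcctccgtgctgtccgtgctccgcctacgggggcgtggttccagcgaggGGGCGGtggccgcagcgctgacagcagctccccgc
Hk2: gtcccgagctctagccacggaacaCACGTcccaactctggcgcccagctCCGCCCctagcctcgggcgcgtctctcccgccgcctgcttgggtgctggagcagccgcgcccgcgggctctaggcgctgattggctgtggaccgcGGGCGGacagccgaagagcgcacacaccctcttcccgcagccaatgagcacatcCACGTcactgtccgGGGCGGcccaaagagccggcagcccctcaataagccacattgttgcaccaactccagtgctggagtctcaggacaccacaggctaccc
Pfkl: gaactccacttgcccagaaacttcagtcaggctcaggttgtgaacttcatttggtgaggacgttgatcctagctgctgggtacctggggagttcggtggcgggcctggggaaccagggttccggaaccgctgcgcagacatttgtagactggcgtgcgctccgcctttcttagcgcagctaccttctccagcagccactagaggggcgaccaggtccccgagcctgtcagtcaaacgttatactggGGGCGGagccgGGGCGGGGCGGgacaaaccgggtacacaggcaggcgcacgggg
Pfkp: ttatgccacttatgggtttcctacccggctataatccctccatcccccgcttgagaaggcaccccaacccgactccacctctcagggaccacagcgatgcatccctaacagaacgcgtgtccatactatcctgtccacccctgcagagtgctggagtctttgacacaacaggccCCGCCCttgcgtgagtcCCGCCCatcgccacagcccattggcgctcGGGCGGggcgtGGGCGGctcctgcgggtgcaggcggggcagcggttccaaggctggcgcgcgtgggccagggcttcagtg
The Pdk1 window held 2 GC boxes and no ACGTG core. The Hk2 window held 2 ACGTG cores and 3 GC boxes. The Pfkl window held 3 GC boxes, of which a pair overlapped by 1 base, and the Pfkp window held 4, neither with an ACGTG core. Over all 11 RefSeq starts of the 7 genes, ACGTG on either strand was found in 4 and GGGCGG in 8. Of all 32851 mouse promoter windows of this length, 19.6% and 35.7% held them. Overlapping windows of Aldoa hold the same ACGTG core and GC boxes and are each counted, so the starts are not independent. A match only says that these letters are present in the window. The Pdk1, Pfkl and Pfkp windows, which hold no ACGTG, do hold GCGTG as printed, so none of them lacks a form of the core. How often GCGTG occurs in all promoter windows was not counted.

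Per kilobase of exon, Aldoa was the most abundant of the 7 transcripts in the flox control, at 528 ± 23.8 CPM per kb (SD, n = 3), followed by Pkm at 338 ± 37.0 and Gpi1 at 226 ± 23.1 CPM per kb. Hk2 at 40.9 ± 2.93 and Pfkl at 39.7 ± 2.00 CPM per kb did not differ beyond their spread. Pdk1 stood at 20.2 ± 0.588 and Pfkp at 6.84 ± 0.475 CPM per kb. In the untreated adult controls the order was Aldoa (327 ± 10.6) and Pkm (329 ± 25.3 CPM per kb) together, then Gpi1, Hk2, Pfkl, Pdk1 and, again last, Pfkp. Between the group with the highest mean and the group with the lowest, CPM spanned 1.72-fold for Hk2, the narrowest of the 7, and 2.73-fold for Pfkp, the widest.

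In the homozygous fetal deletion, Pdk1 was lower and 5 of the 6 enzyme genes were higher. Pdk1 was 2.34-fold lower in the homozygous deletion than in the flox control and 1.38-fold lower in the heterozygous deletion. Hk2, Gpi1, Pfkp, Aldoa and Pkm were 1.38 to 1.62-fold higher in the homozygous deletion, while in the heterozygous deletion they lay within 1.07-fold of the control. Pfkl was close to the control in both.

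Pdk1 (ENSMUSG00000006494, chr2:71873224-71903858, plus strand, GRCm38) had 152, 159 and 161 CPM in the 3 flox control libraries, 109, 109 and 118 CPM in the heterozygous deletion, and 66.7, 72.3 and 67.2 CPM in the homozygous deletion. The 3 groups formed separate steps with no overlap between any of them, and the Vav1-Cre library of the same batch, at 145 CPM, lay above every deletion library. The log2 fold change was -1.23 ± 0.059 (SE) for the homozygous deletion and -0.47 ± 0.058 for the heterozygous deletion against the flox control, which both share. Between the deletions it was -0.76 ± 0.059. Across all groups, flox controls had the highest Pdk1 and the homozygous deletion the lowest, with the S34F group next to lowest and the heterozygous deletion above it. These 3 lowest groups did not overlap with one another. The S34F group was in batch B and the deletions in batch A, so genotype and batch cannot be told apart in this order. The Vav1-Cre library had 123 CPM in batch B and 145 CPM in batch A. The heterozygous deletion overlapped with the 10000 ppm group above it, and the adult groups and Vav1-Cre libraries further up overlapped with their neighbours as well, until the flox control, which stood apart.

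**Figure D1:**
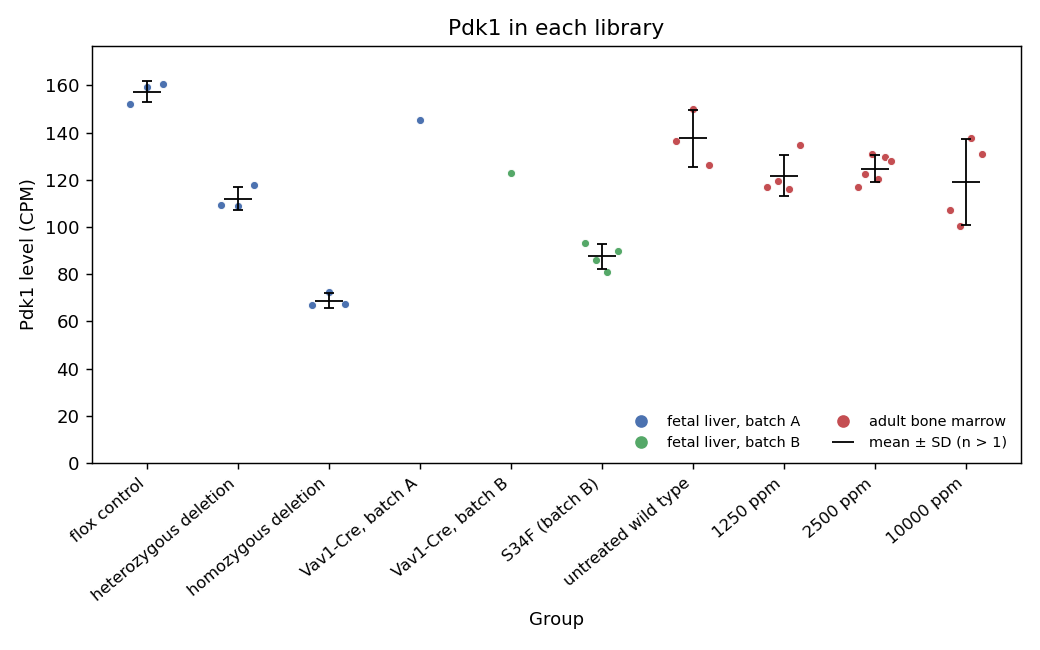
Pdk1 level in each of the 32 libraries, in CPM on a linear axis from 0, by group, with the mean and SD where a group has more than 1 library. Homozygous deletion libraries sit between 66.7 and 72.3 CPM, below the heterozygous deletion at 109 to 118 CPM. The S34F libraries, of the other batch, sit at 80.9 to 93.0 CPM.

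Hk2 (chr6:82725025-82774454, minus strand) encodes hexokinase 2, the inducible form of the first enzyme. It had 264, 232 and 236 CPM in the flox control, 259, 247 and 266 CPM in the heterozygous deletion, and 342, 357 and 336 CPM in the homozygous deletion. Every homozygous library was above every other library of the series, and the log2 fold change against the flox control was 0.47 ± 0.059 (SE).

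Gpi1 (chr7:34201330-34230336, minus strand) encodes glucose-6-phosphate isomerase, which makes fructose 6-phosphate. Its levels were 1629, 1359 and 1382 CPM in the flox control, 1525, 1425 and 1347 CPM in the heterozygous deletion and 2109, 2266 and 2314 CPM in the homozygous deletion, a log2 fold change of 0.58 ± 0.080 (SE) for the latter. The homozygous libraries were apart from the other batch A libraries. Exons of Gpi1 share 741 bases with the lincRNA Gm26762 on the other strand, and since the use of strand in counting is not given in the sources used here, reads of the overlap cannot be assigned to either.

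Phosphofructokinase is a tetramer built from liver-type (Pfkl), platelet-type (Pfkp) and muscle-type (Pfkm) subunits, and the subunit genes differed from each other. Pfkp (chr13:6579768-6648777, minus strand) had 97.3, 84.8 and 92.9 CPM in the flox control, 89.6, 100.3 and 99.6 CPM in the heterozygous deletion, and 142, 163 and 152 CPM in the homozygous deletion. Its log2 fold change of 0.70 ± 0.077 (SE) in the homozygous deletion was the highest of the 7 genes. Pfkl (chr10:77986947-78010083, minus strand) had 253, 263 and 279 CPM in the flox control, 293, 262 and 276 CPM in the heterozygous deletion and 254, 256 and 229.9 CPM in the homozygous deletion. The homozygous deletion and the flox control overlapped for Pfkl, with a log2 fold change of -0.13 ± 0.060, and against the heterozygous deletion, with no overlap, the value was -0.22 ± 0.060. Pfkm, which was not in the set, was lower in the homozygous deletion, at 31.8 ± 2.13 CPM against 59.1 ± 8.08 CPM in the flox control (SD, n = 3 each), a log2 fold change of -0.93 ± 0.102. Pfkp shares 748 exon bases with Pitrm1 on the other strand.

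Aldoa and Pkm act further down the pathway. Aldoa (chr7:126795234-126800751, minus strand), whose aldolase splits fructose 1,6-bisphosphate, had 1605, 1467 and 1542 CPM in the flox control, 1657, 1493 and 1482 CPM in the heterozygous deletion and 2215, 2314 and 2277 CPM in the homozygous deletion. Pkm (chr9:59656368-59679375, plus strand), the pyruvate kinase of most tissues, had 1905, 1567 and 1605 CPM in the flox control, 1753, 1586 and 1586 CPM in the heterozygous deletion and 2514, 2536 and 2390.3 CPM in the homozygous deletion. For both genes all homozygous libraries lay above all 6 others, with log2 fold changes against the flox control of 0.53 ± 0.060 for Aldoa and 0.52 ± 0.076 for Pkm (SE). Pkm shares 767 exon bases with the unclassified transcript Gm49759 on the same strand, and Aldoa 25 bases with Fam57b on the other.

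Over all genes the limit for a call was an adjusted p under 0.05 (Benjamini-Hochberg) in edgeR's quasi-likelihood test. Between the homozygous deletion and the flox control, 6 of the 7 genes were past that limit, 5 higher and 1 lower, where 41.0% of all 12678 genes tested were (18.5% higher and 22.4% lower). Against the heterozygous deletion all 7 were past it, 5 higher and 2 lower, where 42.3% of genes were (19.8% higher and 22.4% lower). Between the heterozygous deletion and the flox control 1 of the 7 was past it, Pdk1, where 0.0316% were (0.00789% higher and 0.0237% lower). These counts repeat the contrasts from which the set was chosen, so they do not stand as support for it. The Vav1-Cre library of batch A, which carries the recombinase with no flox allele, had 249.7 CPM of Hk2, 1368 of Gpi1, 265 of Pfkl, 87.5 of Pfkp, 1493 of Aldoa and 1589 CPM of Pkm, each within the range of the flox control. The median log2 fold change of the 7 genes in the homozygous deletion was 0.52, beside -0.02 over all genes tested.

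Hepatocyte marker levels moved with the genotypes. The mean log2 level of those markers in each library was then added to the model as a covariate. Pdk1 and Aldoa were past the limit in the homozygous deletion and the other 4 genes were not. Over all 12678 genes tested, 1304 were past it in that fit, in place of 5194. The log2 fold changes of that fit were 0.30 for Hk2, 0.31 for Gpi1, 0.37 for Pfkp, 0.46 for Aldoa and 0.36 for Pkm, and that of Pfkl was 0.07 in place of -0.13. The Pdk1 value moved by less than the spread between replicates. The same fit put Pdk1 of the heterozygous deletion at -0.47 but no longer past the limit, and Pfkl between the deletions at -0.12, also no longer past it. The heterozygous Pdk1 call was lost as well with the replicate number as a block and with only those 2 groups in the model. It was also lost without flox control replicate 4 or 5 or heterozygous replicate 4 or 5. The value stayed between -0.51 and -0.44. Every fit that lost this call, the covariate fit included, had 0 genes past the limit over all genes tested, where the main fit had 4.

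Other markers separated the genotypes too. In the homozygous deletion, B cell markers (4 of 7 with a row) were lower, with sums of 24.4 to 26.6 CPM against 58.8 to 119 CPM in the flox control, and so were megakaryocyte markers (5 of 6), with 53.6 to 71.3 CPM against 106 to 180.0 CPM. Macrophage markers summed to 105 to 110.3 CPM in the flox control, 48.2 to 82.9 CPM in the heterozygous deletion and 39.6 to 62.5 CPM in the homozygous deletion. Mast cell and basophil markers were at 420.0 to 435 CPM in the heterozygous deletion, above the flox control as well. The part of these markers and of the lower Kit level in the differences was not tested.

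**Figure D2:**
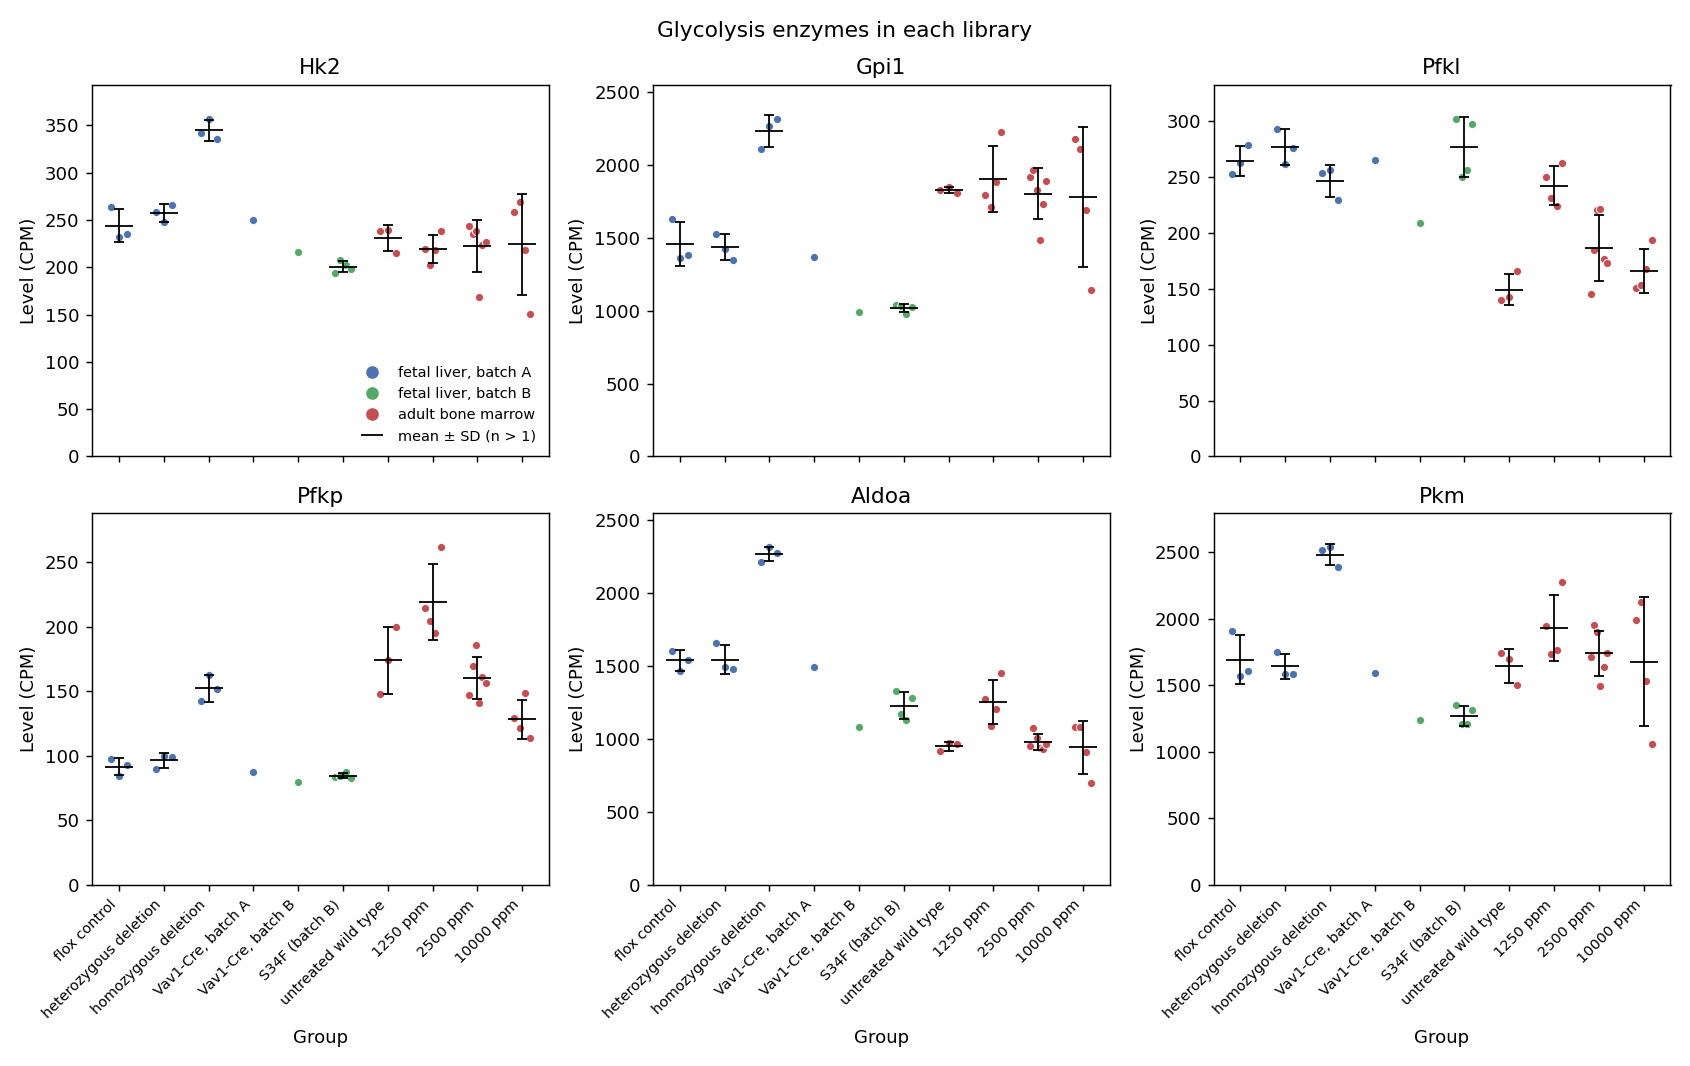
Levels of the 6 enzyme genes in each library, in CPM on linear axes from 0, by group, with the mean and SD where a group has more than 1 library. Homozygous deletion libraries of Hk2, Gpi1, Pfkp, Aldoa and Pkm lie above the other fetal libraries, Pfkl and Pfkp fall from 1250 to 10000 ppm among the adults, and the 10000 ppm libraries of Hk2, Gpi1 and Pkm spread widely.

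Other steps between glucose and acetyl-CoA were read from lists of further pathway genes. All fetal values of these lists come from the main fit and are not given with the hepatocyte covariate. With that covariate the calls over all genes in the homozygous deletion went from 5194 to 1304. The part of hepatocyte RNA in the list values was not tested. Of the 9 genes for glucose and lactate transport and for the regulators of phosphofructokinase, all with a row, 6 were higher and 1 lower past the limit in the homozygous deletion, where 18.5% and 22.4% of all genes were, with a list median of 0.49 on the log2 scale. Pfkfb4, which makes the activator fructose 2,6-bisphosphate, was higher by 1.38 ± 0.211 (54.0 ± 9.63 against 20.2 ± 7.09 CPM, SD, n = 3 each). Slc16a3, the lactate exporter MCT4, was higher by 0.95 ± 0.081 (232 ± 12.4 against 117 ± 9.76 CPM), and the glucose transporter Slc2a3 by 0.64 ± 0.070 (104 ± 6.45 against 65.4 ± 5.18 CPM). Pfkfb2 was the one that was lower, by -0.61 ± 0.174, at 3.94 ± 0.418 against 5.89 ± 0.931 CPM. The 3 homozygous libraries and the 3 controls did not overlap for any of these 4 genes. They were named for their calls and large fold changes in this same comparison, so the lack of overlap adds no support. The share of all genes without overlap was not computed.

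At the gate of pyruvate dehydrogenase, the other kinases did not follow one pattern. Pdk2 was lower in the homozygous deletion, with 2.12 to 4.43 CPM against 10.1 to 13.7 CPM in the flox control, a log2 fold change of -1.80 ± 0.226 (SE), and Pdk3 overlapped with the control, at 58.7 to 78.3 against 57.2 to 60.4 CPM. Of the 9 tested genes of the complex, its kinases and the mitochondrial pyruvate carrier, Pdk1 apart, 6 were higher and 1 lower past the limit, where 18.5% and 22.4% of all genes were, with a list median of 0.21. Mpc1 and Mpc2, the carrier subunits, were higher by 0.65 ± 0.110 and 0.39 ± 0.084, and Dld, the dihydrolipoyl dehydrogenase, by 0.38 ± 0.076. These counts come from the comparison that chose Pdk1, so nothing is read from them for the complex or its kinases.

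Of the 15 further glycolysis genes with a row, 3 were higher and 4 lower past the limit, or 7 of 15 where 41.0% of all genes were, a share near that of all genes. The list median was -0.44. Adpgk, the ADP-dependent glucokinase, was higher by 1.17 ± 0.122 (224 ± 33.6 against 97.3 ± 11.5 CPM), and Pgam1 and Tpi1, the mutase and the triose isomerase, by 0.52 ± 0.092 and 0.25 ± 0.057. The genes that were lower included Pklr (-1.66 ± 0.390), the pyruvate kinase of liver and red cells, and Pfkm. Pklr ran from 47.6 to 163 CPM in the flox control, in libraries whose hepatocyte markers ran from 84.2 to 607 CPM and whose erythroid markers (5 of 10 with a row) ran from 487 to 703 CPM. Erythroid markers summed to 288 to 341 CPM in the homozygous deletion. In the heterozygous deletion none of the genes of these 3 lists was past the limit.

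**Figure D3:**
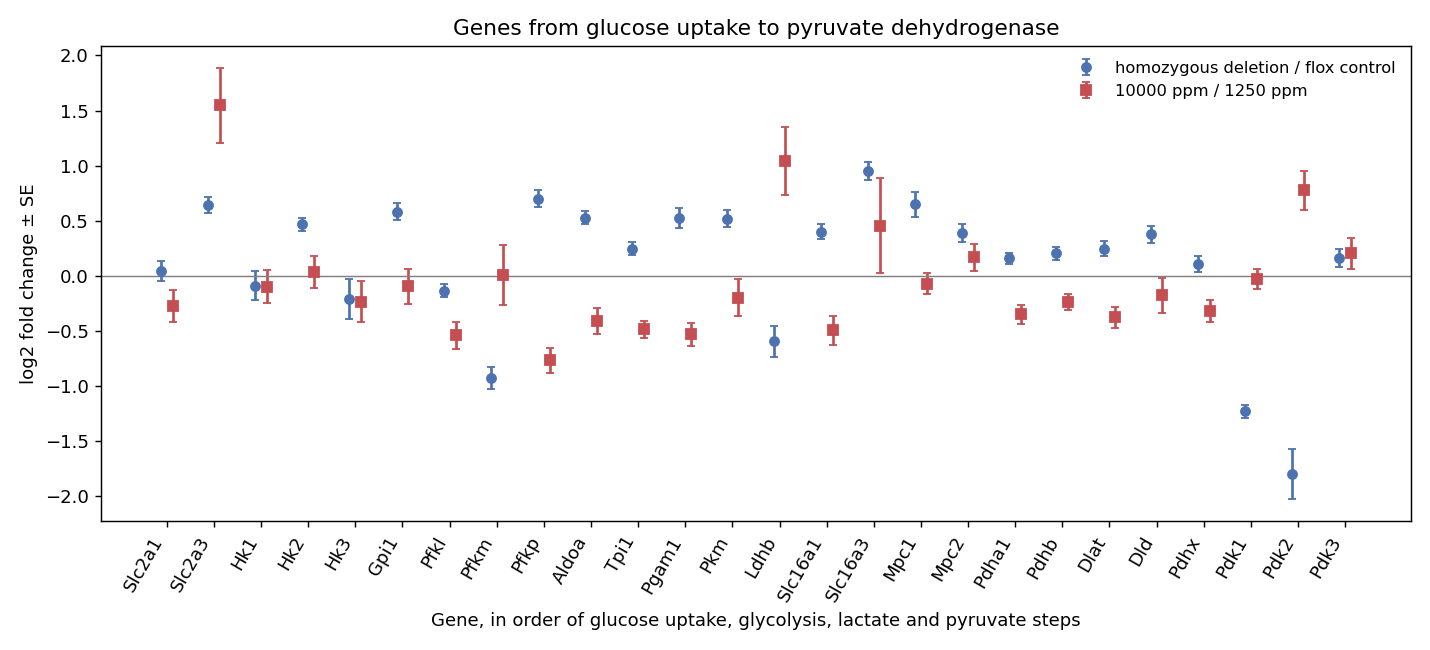
Log2 fold change with its SE for genes from glucose uptake to pyruvate dehydrogenase, of homozygous deletion and flox control (circles) and at 10000 against 1250 ppm (squares). Of the genes drawn, Pdk1 and Pdk2 are the lowest circles, at -1.23 and -1.80. Pfkp, Tpi1 and Pgam1 are above 0 in the fetal comparison and below 0 in the adult one. Not all genes of the lists are drawn: Pklr, which had a lower fetal value than Pdk1, and Adpgk are among those left out.

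The S34F libraries were set against the only Vav1-Cre library of their batch, so the difference has no replicate check and no test was made. Pdk1 had 93.0, 86.1, 80.9 and 89.9 CPM in the S34F libraries and 123 CPM in the control, and all 4 were lower, with log2 ratios of -0.38, -0.50, -0.59 and -0.45 when scaled within the batch. Of 11823 genes, 310 (2.62%) were lower in all 4 libraries by at least the smallest of these Pdk1 differences, a limit set after the values were seen. Pfkl was the enzyme gene farthest from the control, with 302, 251, 257 and 297 CPM against 209 CPM, and log2 ratios from 0.28 to 0.56. Aldoa and Pfkp were higher in all 4 libraries as well, by log2 ratios from 0.08 to 0.32 and from 0.05 to 0.14. Hk2 was lower in all 4, with log2 ratios from -0.13 to -0.04, and Gpi1 and Pkm had libraries on either side. Of the other kinases, Pdk3 was lower in all 4 libraries, with log2 ratios from -0.45 to -0.19, and Pdk2 ran from -0.10 to 0.24. Hepatocyte markers summed to 15.9 to 42.7 CPM in the S34F libraries and 15.1 CPM in the control. B cell markers (4 of 7 with a row) summed to 41.0 to 45.3 CPM against 81.8 CPM, with Pax5 at 5.40 to 6.87 against 24.6 CPM, and markers of the sorted progenitors (3 of 5 with a row) to 1017 to 1063 CPM against 1266 CPM. The part of these markers in the differences was not tested. None of the 7 genes was 2-fold apart from the control in every S34F library, where 1.01% of genes were, and none 1.5-fold, where 3.90% were.

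In the adult dose groups, Pdk1 was not lower than in the controls beyond the spread, and 3 enzyme genes, Pfkl, Pfkp and Aldoa, changed. Pfkl rose at 1250 ppm against the untreated controls. From 1250 to 10000 ppm Pfkl, Pfkp and Aldoa fell. Hk2, Gpi1, Pkm and Pdk1 passed no test among the adult groups. The adult libraries played no part in choosing the set, and the comparisons with the untreated group share its 3 libraries.

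Pdk1 had 136, 150.1 and 126 CPM in the untreated controls, 117, 119.5, 116 and 135 CPM at 1250 ppm, a range of 117 to 131 CPM with a median of 125 CPM in the 6 libraries at 2500 ppm, and 107, 100.5, 138 and 131 CPM at 10000 ppm. The dose groups had lower means than the controls but overlapped with them. The log2 fold changes against the controls were -0.17 ± 0.099 at 1250 ppm, -0.14 ± 0.092 at 2500 ppm and -0.20 ± 0.099 at 10000 ppm (SE), with adjusted p of 0.248, 0.488 and 0.242 (edgeR). The slope on log2 of the dose was -0.00 ± 0.030 (adjusted p = 0.962).

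Pfkl had 140.2, 143 and 166 CPM in the untreated controls and 250.4, 232, 224 and 263 CPM at 1250 ppm. It ran from 145 to 222 CPM with a median of 181 CPM at 2500 ppm, and was 150.5, 153, 168 and 194 CPM at 10000 ppm. All 1250 ppm libraries were above all other adult libraries, and the 10000 ppm libraries overlapped with the controls. Pfkl rose 1.62-fold at 1250 ppm against the controls (log2 0.70 ± 0.132, adjusted p = 0.00959, higher in 4 of 4 libraries), and this was the only one of the 7 genes called there, where 11.4% of 13338 genes were (6.76% higher and 4.66% lower). Without untreated replicate 1 or without replicate 2 the adjusted p was 0.0584 and 0.0617, so the call needs both. Over all genes those fits called 139 and 68, in place of 1524. Pfkl then fell 1.45-fold from 1250 to 10000 ppm (-0.54 ± 0.121, adjusted p = 0.00857). At 2500 ppm it stood at 0.32 ± 0.122 against the controls (adjusted p = 0.217) and -0.38 ± 0.109 against 1250 ppm (adjusted p = 0.0718).

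Pfkp was at 148, 174 and 200.1 CPM in the untreated controls and 214, 204, 195 and 262 CPM at 1250 ppm. It ran from 141 to 186 CPM with a median of 159 CPM at 2500 ppm and was 129, 121, 149 and 114 CPM at 10000 ppm. Each of the higher doses was apart from 1250 ppm, whereas the controls overlapped with every dose. Pfkp fell 1.70-fold from 1250 to 10000 ppm (-0.77 ± 0.117, adjusted p = 0.00304) and 1.37-fold from 1250 to 2500 ppm (-0.45 ± 0.105, adjusted p = 0.0452). The second of these was lost without any 1 of the 4 libraries at 1250 ppm, or without replicate 1, 2, 5 or 6 at 2500 ppm. The adjusted p ran up to 0.204. All of these fits but the one without 1250 ppm replicate 3 called 0 genes over all genes tested, where the main fit called 255. Against the controls the 10000 ppm value was -0.43 ± 0.125 (adjusted p = 0.0722), and without 10000 ppm replicate 3 it was -0.49 (adjusted p = 0.0337).

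Aldoa had 915, 969.5 and 967 CPM in the untreated controls and 1276, 1091, 1205 and 1452 CPM at 1250 ppm, above every control library, and the test gave 0.41 ± 0.129 (adjusted p = 0.052). Without 1250 ppm replicate 3 the adjusted p was 0.0412. At 2500 ppm Aldoa ran from 929 to 1076 CPM with a median of 960.1 CPM, and at 10000 ppm it was 1082, 1086, 909 and 701 CPM. From 1250 to 10000 ppm it fell 1.33-fold (-0.41 ± 0.119, adjusted p = 0.0268, no overlap), a call lost without 10000 ppm replicate 3 or 4, or without 1250 ppm replicate 1, 4 or 5, with adjusted p from 0.0558 to 0.0957, and with only those 2 groups in the model (adjusted p = 0.149). Without 10000 ppm replicate 4 the value was -0.26.

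Hk2, Gpi1 and Pkm passed no test with dose and spread widely at 10000 ppm. Their levels there were 258, 269, 219 and 150.3 CPM for Hk2, 2173, 2109.9, 1686 and 1138 CPM for Gpi1 and 1993, 2126, 1529 and 1058 CPM for Pkm. Replicate 4 was the lowest of the group for all 3 genes, as it was for Aldoa and Pfkp. The 6 granulocyte markers with a row (of 9) summed to 63855, 64821, 43027 and 17001 CPM in the same 4 libraries, so this library was also the lowest in those, and their part in the spread was not tested. At 1250 ppm the granulocyte markers summed to 30878 to 38847 CPM and in the untreated controls to 34426 to 48017 CPM. Macrophage markers (9 of 9 with a row) summed to 352 to 454 CPM in the untreated controls, 149 to 209 CPM at 1250 ppm and 97.0 to 356 CPM at 10000 ppm, so they were lower at 1250 ppm where Pfkl was higher. At 1250 ppm the mast cell and basophil markers were lower too, at 99.9 to 190.0 against 253 to 263 CPM in the controls, and the B cell markers higher, at 38.2 to 50.6 against 18.4 to 25.4 CPM, both with no overlap. The part of these markers in that result was not tested.

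Counted over the set, 3 of 7 genes fell from 1250 to 10000 ppm, where 18.1% of 13338 genes were called (7.53% higher and 10.6% lower), and the median log2 fold change was -0.20, beside 0.02 over all genes. From 1250 to 2500 ppm 1 of 7 was called, where 1.91% were (0.547% higher and 1.36% lower). The slope over the 14 libraries with doxycycline was called for Pfkl, at -0.15 ± 0.043 per unit of log2 dose (adjusted p = 0.0379), and for Pfkp, at -0.23 ± 0.039 (adjusted p = 0.0111), where 10.7% of 12849 genes were (5.39% higher and 5.32% lower). The Pfkl slope was lost without any 1 of the 1250 ppm libraries, without 10000 ppm replicate 1 or 2, or without 2500 ppm replicate 3. The adjusted p ran from 0.0519 to 0.118. Over all genes those fits called 87 to 1065, in place of 1376. None of the 7 was called at 10000 ppm or 2500 ppm against the controls, where 1.27% (0.952% higher and 0.315% lower) and 0.487% (0.345% higher and 0.142% lower) of genes were. Between 10000 and 2500 ppm edgeR called no gene at all (0%), with 1445 genes at an unadjusted p under 0.05 and 55 genes called by DESeq2.

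**Figure D4:**
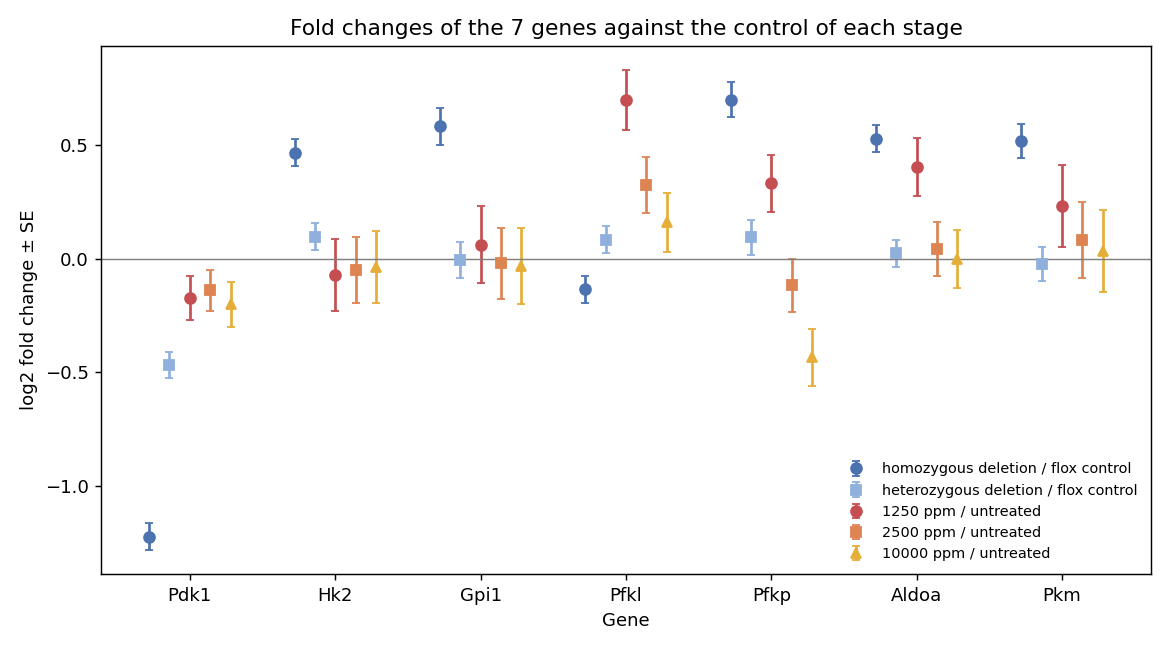
Log2 fold change with its SE of the 7 genes in the fetal deletions against the flox control and in the adult dose groups against the untreated controls. Pdk1 lies at -1.23 and -0.47 in the fetal deletions and between -0.20 and -0.14 in the adults, and Pfkl at 0.70 is the highest adult value.

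Among the further pathway genes, Tpi1 was called in the same directions as Pfkl in both comparisons. It rose at 1250 ppm against the untreated controls (653 ± 69.7 against 464 ± 13.5 CPM, 0.50 ± 0.086, adjusted p = 0.00764) and fell from 1250 to 10000 ppm (-0.48 ± 0.079, adjusted p = 0.00313). Pgam1 fell over the same step (-0.53 ± 0.106, adjusted p = 0.00577). In all, 2 of the 12 tested glycolysis genes of that list rose and 2 fell from 1250 to 10000 ppm, with a list median of 0.21. Those that rose were Adpgk (1.81 ± 0.524, adjusted p = 0.0261) and Ldhb (1.04 ± 0.308, adjusted p = 0.0285), the heart-type lactate dehydrogenase subunit, and the ranges overlapped for both. At 1250 ppm against the controls 1 of 12 rose and 1 fell, the latter being Ldhb (-1.17 ± 0.327, adjusted p = 0.0348).

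Of the 9 tested genes of the pyruvate dehydrogenase list, 4 fell and 1 rose from 1250 to 10000 ppm, with a list median of -0.17. Dlat (-0.37 ± 0.094, adjusted p = 0.0141), Pdha1 (-0.35 ± 0.083, adjusted p = 0.0108) and Pdhx (-0.32 ± 0.100, adjusted p = 0.0365), subunits of the complex, were the 3 with the largest fall. Pdk2 was the one that rose, with 12.2 to 20.3 CPM at 10000 ppm against 7.43 to 11.8 CPM at 1250 ppm (0.78 ± 0.176, adjusted p = 0.00909), and it was also higher at 2500 than at 1250 ppm (0.71 ± 0.163, adjusted p = 0.0443). Pdk3 fell at 1250 ppm against the untreated controls (59.9 ± 6.89 against 84.5 ± 1.11 CPM, -0.49 ± 0.150, adjusted p = 0.0444). Of the 9 transport and regulation genes, 2 rose and 2 fell from 1250 to 10000 ppm. Slc2a3 rose (1.55 ± 0.344, adjusted p = 0.00835) with a wide spread of 57.3 to 258 CPM at 10000 ppm, against 43.0 to 48.8 CPM at 1250 ppm. Pfkfb2 rose by 0.52 ± 0.144 (adjusted p = 0.0216), and Tigar and Slc16a1 fell by 0.55 and 0.49.

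Fetal flox controls were compared with untreated adult controls to set the levels of both stages side by side. Stage, tissue, genotype and preparation cannot be told apart in this comparison, in which 59.0% of 12256 genes were called (30.0% higher and 29.0% lower) and 4 of the 7 genes were. Pfkl (0.81 ± 0.082, adjusted p = 0.000331) and Aldoa (0.68 ± 0.061, adjusted p = 0.000227) were higher in fetal cells, and Pfkp (-0.94 ± 0.114, adjusted p = 0.000654) and Gpi1 (-0.34 ± 0.080, adjusted p = 0.00955) were lower, with no overlap between the groups for any of them. The Gpi1 call was lost without flox control replicate 4 or 5 (adjusted p = 0.0527 and 0.0515). Pdk1 had no overlap either, at 0.18 ± 0.079 (adjusted p = 0.0859), and without untreated replicate 2 the value was 0.24 (adjusted p = 0.0384). Hk2 and Pkm differed by 0.07 ± 0.075 and 0.03 ± 0.097 (adjusted p = 0.476 and 0.832).

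The pattern of Pdk1 across the 32 libraries was compared with that of other genes after the means of fetal batch A, fetal batch B and the adult libraries had been subtracted from log2 CPM. Among 7546 protein-coding genes with a mean of at least 10 CPM, the highest Pearson correlations were those of Pi4ka (0.92), a phosphatidylinositol 4-kinase, Acat1 (0.91), the mitochondrial acetoacetyl-CoA thiolase, and Hsd17b4 (0.89), a peroxisomal enzyme of fatty acid oxidation. Acat1 means went from 114 CPM in the flox control to 84.8 CPM in the heterozygous and 53.0 CPM in the homozygous deletion. On the same measure the enzyme genes stood at -0.65 (Gpi1), -0.63 (Aldoa), -0.60 (Pkm), -0.57 (Hk2), -0.48 (Pfkp) and 0.03 (Pfkl). The points share their libraries and the deletion groups that set Pdk1 apart, so these values only describe the 32 libraries.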

How the data were processed

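RNA of 32 libraries was sequenced after depletion of ribosomal RNA. The authors used HISAT2 2.1.0 for mapping to GRCm38, per the labels' design text, which also names DESeq2 for their own expression tests and warns of batch effects between fetal samples. The deposited values are raw counts per Ensembl gene, with no normalization. The counting tool, the annotation and the use of strand are not given in the sources used here. Without molecular identifiers, counting error alone understates the error.

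Symbols, positions and exon lengths came from GENCODE M21, which named 27690 of 27728 IDs. Aldoa had 2 rows, of which the other never exceeded 56 counts and was not used. Libraries were grouped by genotype, treatment and stage. Genes were kept with filterByExpr, scaled by TMM and tested with edgeR 4.0.16 (quasi-likelihood, Benjamini-Hochberg over all genes tested) in R 4.3.3: the 9 batch A libraries in 1 model, the 17 adult libraries in 1 model, the 14 libraries with doxycycline for the slope, and 6 libraries for fetal against adult controls. S34F ratios used genes with a mean of at least 10 counts. The script was tested on simulated data. In all 46 pairs, replicates differed by more than counting error.

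The genes of the set and the lists were chosen with earlier results of these data known. Per list and direction, at most 3 called genes with the largest log2 fold change are named, beside those whose counterparts belong to the set, which were chosen after their values were seen. One gene that the rule names is not reported here. The genes most like Pdk1 are the 3 with the highest correlation. Alternatives were DESeq2 1.42.0, median-ratio (RLE) factors, other filters, only the groups compared, marker and Y-linked covariates, a replicate block and leaving out each replicate. Equal replicate numbers were not treated as pairs in the main fits, since in no comparison did every pair of equal numbers correlate above 0.1. This limit cannot exclude pairing. Between 10000 and 2500 ppm the correlations were 0.40, 0.36, -0.30 and 0.56, and between 2500 ppm and the controls 0.23, 0.09 and 0.16.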

Additional observations from a re-analysis of the deposited data

Results flagged for a closer look

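Hk2 in replicate 4 of the 2500 ppm group, at 168.73 CPM, was far below the other 5 libraries of that group, which ran from 224 to 243 CPM. Its gap to the nearest library was 0.736 of the range of the group. Of 28 groups of 4 to 10 libraries examined over the 7 genes, this was the only one that stood out. Chance alone flags about 1 in 20 of such groups, so 1 flag in 28 is near what chance gives. The granulocyte markers of the same library summed to 29121 CPM, the lowest of its group, which ran up to 50559 CPM, and their part in the low Hk2 value was not tested.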

How the results depend on the processing

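Over the 7 genes and all comparisons, 1170 values under an alternative were rated as the same. For the fetal deletion comparisons this means a move within the spread between replicates, whether or not a call was kept. For the others it means the same side of the limit, and values with no call could change sign. Outside the fetal deletion comparisons, 29 values lost a call and 11 gained one. Within them, 15 moved by more than the spread between replicates (all with the hepatocyte covariate). No call reversed. With the hepatocyte covariate, 2 genes in place of 6 were called in the homozygous deletion and 0 in place of 1 in the heterozygous deletion. Between the deletions it was 6 in place of 7 (Pfkl lost). Over all genes the calls were 1304, 0 and 4048 in that fit, in place of 5194, 4 and 5358. Fitting only the groups compared gave 0 for the heterozygous deletion, 2 for 1250 ppm against controls, 2 in place of 3 for 10000 against 1250 ppm (Aldoa lost) and 2 for 2500 against 1250 ppm. DESeq2 gave 1 gene (Pfkp) at 10000 ppm against controls, 2 (Pfkl and Aldoa) at 1250 ppm against controls and 3 for 2500 against 1250 ppm. Over all genes DESeq2 called 1036, 2415 and 948 there, where edgeR called 169, 1524 and 255. A mean of at least 50 counts gave 2 for 1250 ppm against controls, and RLE factors or no filter gave 0 for 2500 against 1250 ppm. Leaving out each replicate in turn, the counts ran from 0 to 1 for the heterozygous deletion (lost without flox control replicate 4 or 5, or heterozygous replicate 4 or 5), 0 to 1 for 10000 ppm against controls, 0 to 2 for 1250 ppm against controls, 2 to 3 for 10000 against 1250 ppm, 0 to 2 for 2500 against 1250 ppm, 1 to 2 for the slope and 3 to 5 for fetal against adult controls. The cause was not tested. With the replicate block, the count was 0 for the heterozygous deletion, 0 for 2500 against 1250 ppm and 1 (Pfkp) for the slope, and unchanged for the 7 other comparisons. No paired analysis was possible because only 1 replicate number was shared for fetal against adult controls, and the S34F comparison had 1 control. The Y-linked covariate changed no count of the set. Over all genes it left 0 called at 10000 ppm against controls, in place of 169. Single libraries were left out for the 7 genes only, not for the further lists. Each value of the 7 genes rests on at least 2160 counts, so replicate spread, not depth, limits these comparisons.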

Other observations

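Transcripts of the hypoxia response, which overlaps with the regulation of glycolysis, lay on both sides of the control in the homozygous deletion, 8 higher and 7 lower. Of the 15 tested genes of that list, 5 were higher and 1 lower past the limit. That is 6 of 15, where 41.0% of all genes were. The share is near that of all genes, so nothing about the list is read from it. The list median was 0.00 beside -0.02 over all genes. Ero1l, an oxidase of the endoplasmic reticulum, was higher by 1.28 ± 0.121 on the log2 scale (378 to 478 against 151 to 203 CPM), Mxi1, a Myc antagonist, by 0.97 ± 0.091 (129.6 to 159 against 68.4 to 80.9 CPM), and Vegfa by 0.69 ± 0.161 (107 to 124 against 57.8 to 89.0 CPM). Arnt, the partner of the hypoxia-inducible factors, was lower by -0.26 ± 0.055. None of the list was past the limit in the heterozygous deletion. As in the report, these fetal values are a description, from the main fit without the hepatocyte covariate.

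From 1250 to 10000 ppm 2 genes of the list rose and 2 fell by edgeR's test. P4ha1 (-0.50 ± 0.105, adjusted p = 0.00685), a collagen prolyl hydroxylase subunit, and Egln3 (-0.36 ± 0.109, adjusted p = 0.0312), an oxygen sensor of the pathway, fell, and Bnip3l (0.48 ± 0.132, adjusted p = 0.0213) rose. Of 6 tested regulators of glycolysis, Mycn rose (7.44 to 12.5 against 1.82 to 4.53 CPM, 1.53 ± 0.358, adjusted p = 0.0103) and Foxk2 fell (-0.25 ± 0.069, adjusted p = 0.0202).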
